A study of Mus musculus with 12 samples.

Results

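Caspases are cysteine proteases, and 8 of the 24421 genes counted in these libraries were followed here: Casp1, Casp2, Casp4, Casp6, Casp8, Casp9, Casp12, and Casp14. They were chosen by symbol from the count files, with earlier results of these data known, because Casp12 was higher in tumors than in livers. That contrast is therefore described for them without a test, and tests were kept for driver class and genotype, which the choice did not use. RNA was measured in 6 liver tumors and in non-tumoral liver from each of these 6 mice. The p21+/Tert mice (n = 4) carried Tert under the p21 (Cdkn1a) promoter and gave the adenoma T-HCA992 and the tumors T-HCC941, T-HCC663, and T-HCC662. The p21+/TertCi mice (n = 2) carried a catalytically inactive Tert under the same promoter and gave TCi-HCC981 and TCi-HCA984. All were aged mice on a standard diet, and no age is given in the labels. The knock-in is heterozygous and acts where the p21 promoter is active, in any cell type, and the endogenous Tert gene was present. HCC stands for hepatocellular carcinoma and HCA for hepatocellular adenoma, and T-HCC663 carries the HCC name although its histology is given as adenoma. Each tumor came from 1 mouse, and no wild-type liver was analysed here. Mice and livers are named by their tumors. The liver paired with T-HCC662 carries another animal number in its label and was assigned to that mouse by elimination.

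Inflammatory caspases (Casp1, Casp4, Casp12) are linked to innate sensing. Casp1 is activated by inflammasomes, cleaves the precursors of the interleukins Il1b and Il18, and opens the pore protein Gsdmd. Casp4, the mouse gene also known as caspase-11, binds cytosolic lipopolysaccharide and also cleaves Gsdmd. Casp12 encodes a protease located at the endoplasmic reticulum that has been studied in stress of that compartment. Initiator caspases start apoptosis from death receptors (Casp8), from the mitochondrial apoptosome (Casp9), or from the PIDDosome (Casp2), a complex known in the liver for limiting hepatocyte polyploidy. Casp6 is an effector caspase, and Casp14 belongs to the cornifying epidermis.

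Casp1, Casp4, and Casp12 are neighbours on chromosome 9 (GRCm38, plus strand). Casp1 spans 5298517 to 5307265, Casp4 5308828 to 5336783, and Casp12 5345430 to 5373032, so 1562 bases separate Casp1 from Casp4 and 8646 bases separate Casp4 from Casp12. The 3 genes fill 74516 bases, and no other gene with counts was annotated within 500 kb of them. Their RefSeq promoter windows (GRCm38.p6, plus strand, 250 bases before to 50 after the transcript start) are shown because these neighbours had the 3 largest tumor-liver differences among the caspases. Capitals mark matches to the NF-kappaB consensus (Casp4) and to TTCNNNGAA, the core of a gamma-activated site (Casp12).
Casp1, chr9:5298267-5298566: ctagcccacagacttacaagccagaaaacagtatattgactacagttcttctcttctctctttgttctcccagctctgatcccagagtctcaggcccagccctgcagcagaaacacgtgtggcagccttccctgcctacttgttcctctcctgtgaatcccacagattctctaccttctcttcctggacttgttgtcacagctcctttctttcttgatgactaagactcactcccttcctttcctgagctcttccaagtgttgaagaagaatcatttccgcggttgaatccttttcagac
Casp4, chr9:5308599-5308898: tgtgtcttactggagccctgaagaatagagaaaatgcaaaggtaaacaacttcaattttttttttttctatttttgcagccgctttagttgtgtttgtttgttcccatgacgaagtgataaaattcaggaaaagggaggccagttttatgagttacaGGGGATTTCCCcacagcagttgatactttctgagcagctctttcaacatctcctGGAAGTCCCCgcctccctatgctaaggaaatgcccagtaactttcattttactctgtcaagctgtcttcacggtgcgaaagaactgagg
Casp12, chr9:5345226-5345525: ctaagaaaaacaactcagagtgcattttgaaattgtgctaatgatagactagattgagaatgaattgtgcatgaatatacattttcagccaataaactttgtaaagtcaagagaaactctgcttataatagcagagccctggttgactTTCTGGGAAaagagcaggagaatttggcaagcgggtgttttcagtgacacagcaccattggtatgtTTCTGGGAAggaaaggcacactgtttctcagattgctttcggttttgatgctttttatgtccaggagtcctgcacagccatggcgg
The Casp12 window held the same 9 letters, TTCTGGGAA, at 2 places, 102 and 36 bases before the RefSeq start. The nearer match (5345440 to 5345448) lies inside the Casp12 span given above, which begins at 5345430. TTCNNNGAA occurred in 8.3% of 32851 windows of the same length. In the Casp4 window, 2 overlapping matches began 93 and 92 bases before the start and another began 39 bases before it, and the NF-kappaB consensus occurred in 8.46% of windows. Both motifs were searched on both strands, and neither was found in the window of Casp1 or of another listed caspase. The core of the interferon-stimulated response element (3.44% of windows) was not found in any of the 8 genes, whereas the related GAAANGAAA (3.17%) was found in Casp8. The AP-1 motif TGANTCA (7.81%), TATAAA (13.6%), and the endoplasmic reticulum stress element (0.119%) had no match in any of them. These matches describe letters in the windows and were not tested as binding sites.

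Casp12 was the caspase with the largest difference. In the non-tumoral livers it stood at 2.16 CPM (TCi-HCA984), 1.70 (T-HCA992), 4.81 (TCi-HCC981), 1.23 (T-HCC941), 4.01 (T-HCC663), and 2.85 (T-HCC662). In the tumors it stood at 33.5 CPM in TCi-HCA984, 28.2 in T-HCA992, 45.6 in TCi-HCC981, 31.3 in T-HCC941, 30.1 in T-HCC663, and 12.2 in T-HCC662. CPM are reads per 1000000 of the TMM-scaled library, and the values rest on 16 to 114 reads per liver and 275 to 888 per tumor. Every tumor lay above every liver, and T-HCC662 was the lowest tumor. The mean was 2.79 ± 1.39 CPM in livers and 30.2 ± 10.7 in tumors (SD, n = 6 each), a fitted log2 fold change of 3.42 ± 0.38 (SE). Complete separation upward was seen in 2.86% of 13822 genes tested, and Casp12 was chosen for this pattern.

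Against its own liver, each tumor carried more Casp12, from 4.3-fold in T-HCC662 to 25.5-fold in T-HCC941. The fold was 7.5 in T-HCC663, 9.49 in TCi-HCC981, 15.5 in TCi-HCA984, and 16.6 in T-HCA992. Both Ctnnb1-mutated tumors were at the low end of that order, and their log2 ratios to the own liver were entirely lower than those of the other 4 in 16.9% of all genes tested (33.3% without overlap in either direction).

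Casp4 ran in parallel at a lower level. It was counted at 1.13 CPM (TCi-HCA984), 1.44 (T-HCA992), 5.06 (TCi-HCC981), 0.768 (T-HCC941), 2.61 (T-HCC663), and 1.71 (T-HCC662) in livers. The tumors had 13.8 CPM (TCi-HCA984), 11.8 (T-HCA992), 19.7 (TCi-HCC981), 14.3 (T-HCC941), 11.1 (T-HCC663), and 3.38 (T-HCC662). The groups overlapped through a single pair of libraries, since the liver of TCi-HCC981 lay above T-HCC662. The means were 2.12 ± 1.57 CPM in livers and 12.3 ± 5.34 in tumors, a log2 fold change of 2.53 ± 0.49 (SE). The fold over the own liver went from 1.98-fold in T-HCC662 to 18.6-fold in T-HCC941.

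Casp1 was the most variable of the neighbours. The livers had 1.23 CPM (TCi-HCA984), 3.45 (T-HCA992), 11.2 (TCi-HCC981), 0.998 (T-HCC941), 3.44 (T-HCC663), and 0.783 (T-HCC662). The tumors had 4.07 CPM (TCi-HCA984), 11.0 (T-HCA992), 54.1 (TCi-HCC981), 20.8 (T-HCC941), 12.3 (T-HCC663), and 7.34 (T-HCC662). The liver of TCi-HCC981 exceeded 3 of the 6 tumors, and TCi-HCC981 stood far above the other tumors. The means were 3.51 ± 3.94 and 18.3 ± 18.4 CPM, and the log2 fold change was 2.36 ± 0.74 (SE), or 3.19 without the liver of TCi-HCC981 and 1.64 without that tumor. The own-liver fold lay between 3.18 (T-HCA992) and 20.9 (T-HCC941). Casp1, Casp4, and Casp12 were thus each higher in the tumor in 6 of 6 mice, as were 10.8% of all genes tested.

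**Figure D1:**
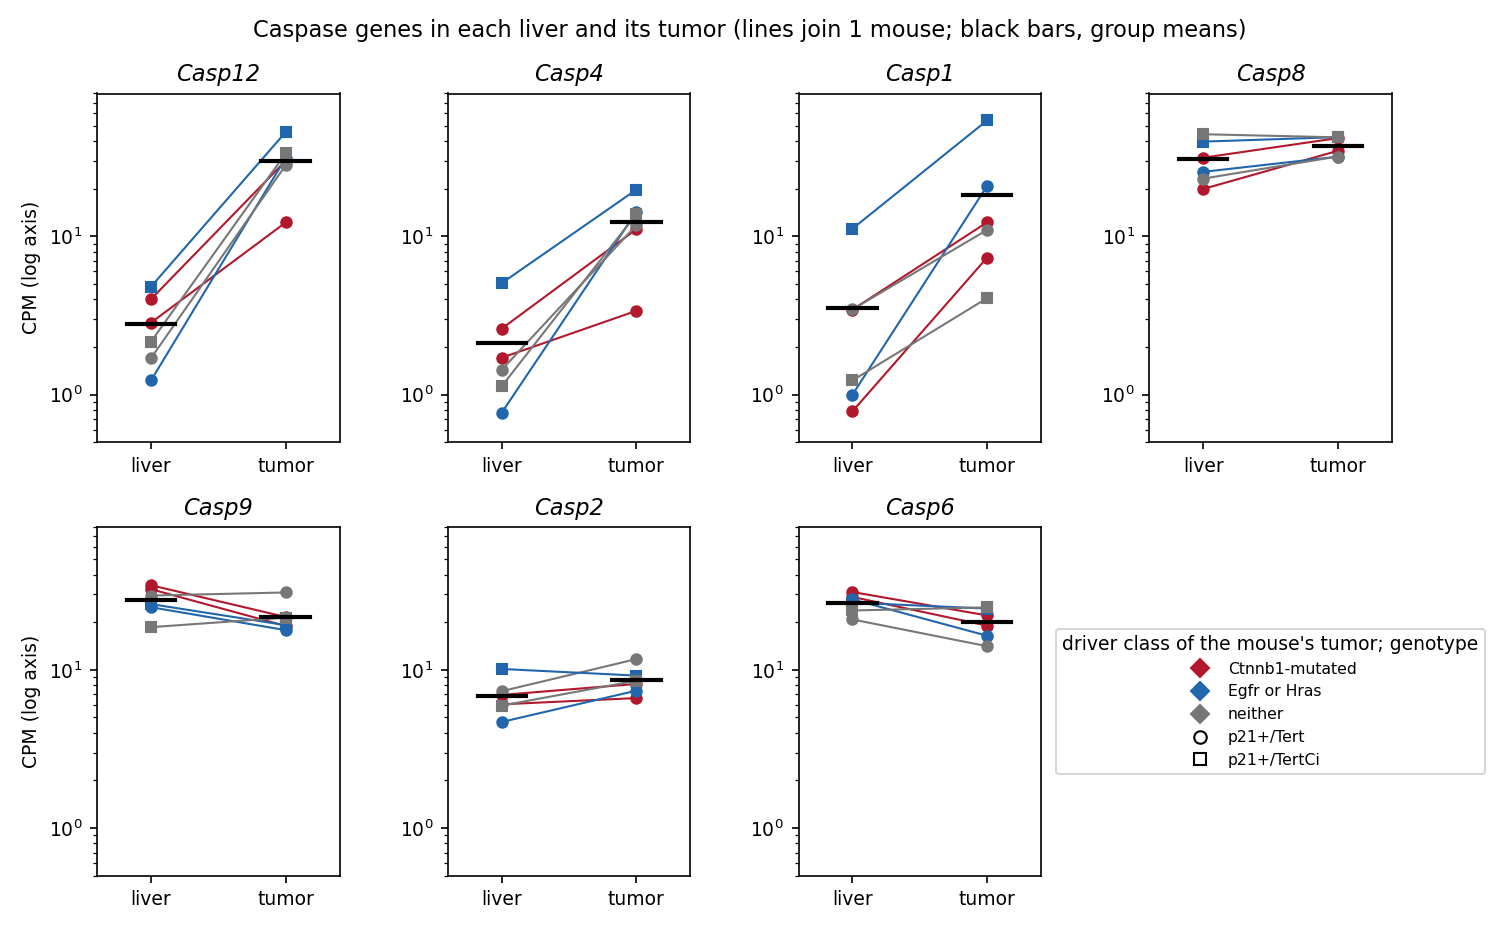
CPM (log axis) of 7 caspase genes in each non-tumoral liver and the tumor of the same mouse, with lines joining a mouse, colors for driver class, circles for p21+/Tert, squares for p21+/TertCi, and black bars for group means (n = 6). Casp12, Casp4, and Casp1 were higher in the tumor in all 6 mice, whereas the lines of the other genes run near level.

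The balance among the 3 neighbours differed between libraries. Casp12 had 0.43 to 3.64 times the CPM of Casp1 in livers and 0.844 to 8.22 times in tumors, the lowest ratio in each tissue belonging to the TCi-HCC981 mouse. Casp12 relative to Casp4 was more even, at 0.95 to 1.91 in livers and 2.19 to 3.62 in tumors. Casp12 was chosen for its higher level in tumors, so the higher ratios there are a description. The liver ratios rest on 10 to 120 reads of Casp4. Among the other genes tested, Casp4 had the profile most like Casp12 across the 12 libraries (Pearson r = 0.97 on log2(CPM + 1)). Mapk3 (0.961), Prom1 (0.96), Polk (0.956), and Pak1 (0.955) followed, and Casp1 ranked 502 (r = 0.799). These coefficients are descriptions over 6 livers and 6 tumors that differ as groups, so they carry mainly the tumor-liver difference. Mapk3 encodes the kinase ERK1, Prom1 the stem and progenitor surface protein CD133, Polk a translesion DNA polymerase, and Pak1 a kinase downstream of Rac. As for Casp12, every tumor lay above every liver for these 4 genes, with 0.23 to 2.07 CPM of Prom1 in livers and 6.01 to 39.7 in tumors.

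The initiator and effector caspases were closer to even between the tissues. Casp8 was counted at 44.2 CPM (TCi-HCA984), 23.2 (T-HCA992), 39.7 (TCi-HCC981), 25.6 (T-HCC941), 19.9 (T-HCC663), and 31.4 (T-HCC662) in livers and at 31.9 to 42.4 in tumors. It was higher in the tumor in 5 of 6 mice, by 1.74-fold at most (T-HCC663), with a log2 fold change of 0.29 ± 0.20 (SE). Casp2 went from 4.68 to 10.1 CPM in livers and from 6.63 to 11.7 in tumors, also higher in 5 of 6 mice, with a log2 fold change of 0.33 ± 0.22. The tumor and liver ranges of both genes overlapped.

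Casp6 and Casp9 leaned the other way. Casp6 had 20.8 to 31.1 CPM in livers and 14.1 to 24.8 in tumors and was lower in the tumor in 5 of 6 mice, with a log2 fold change of -0.40 ± 0.17 (SE). Casp9 had 18.6 to 34.3 CPM in livers and 17.8 to 30.9 in tumors, lower in 4 of 6 mice, with a log2 fold change of -0.35 ± 0.18. Casp9 was above the own liver only in the tumors with neither driver (1.05-fold in T-HCA992 and 1.15-fold in TCi-HCA984), a split noticed after the values were seen and shown by 1.21% of genes. Casp9 overlaps Cela2a and Ctrc on the opposite strand, and no step that marks strand is named for these libraries. Ctrc had no read in any library, and Cela2a had 1.77 to 5.03 CPM, so reads of Cela2a and Casp9 cannot be told apart where they overlap. Casp14 had no read in 11 libraries and 1 read in TCi-HCA984, under a floor of 3 reads (0.108 to 0.23 CPM per library), and no fold is given. Of 7 keratinocyte markers in the files, 2 were at 0 in all libraries and the sum of the list was 3.08 to 8.89 CPM.

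Per kilobase of exon, the order of levels also differed between tissues. In livers Casp8 led with 10.6 ± 3.33 CPM per kb (SD, n = 6), with every liver above every value of Casp9 (5.31 ± 1.09). Casp6 followed (4.75 ± 0.662) and overlapped with Casp9. Then came Casp1 (2.35 ± 2.64), Casp2 (0.97 ± 0.262), Casp12 (0.728 ± 0.361), and Casp4 (0.571 ± 0.424), whose ranges overlapped with that of the next gene in each case. In tumors the means ran Casp8 (13.0 ± 1.79), Casp1 (12.2 ± 12.3), Casp12 (7.85 ± 2.8), Casp9 (4.16 ± 0.914), Casp6 (3.61 ± 0.782), Casp4 (3.33 ± 1.44), and Casp2 (1.22 ± 0.25). Every pair of neighbours in the tumor order overlapped in range.

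Driver class was compared next, a measure that the choice of genes did not use. The classes follow the study's exome sequencing. Ctnnb1 was mutated in T-HCC662 and T-HCC663, Egfr in T-HCC941, and Hras in TCi-HCC981, whereas T-HCA992 and TCi-HCA984 had neither kind. Both Ctnnb1-mutated tumors were p21+/Tert, so class and genotype are partly confounded. Over the own liver, the mean log2 ratio of Casp12 was 2.34 in the Ctnnb1 class, 3.66 in the Egfr or Hras class, and 3.69 in the class with neither. For Casp4 it was 1.36, 2.70, and 2.90, and for Casp1 it was 2.15, 3.03, and 1.47. These ratios were taken on CPM plus 0.5, with n = 2 tumors per class.

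**Figure D2:**
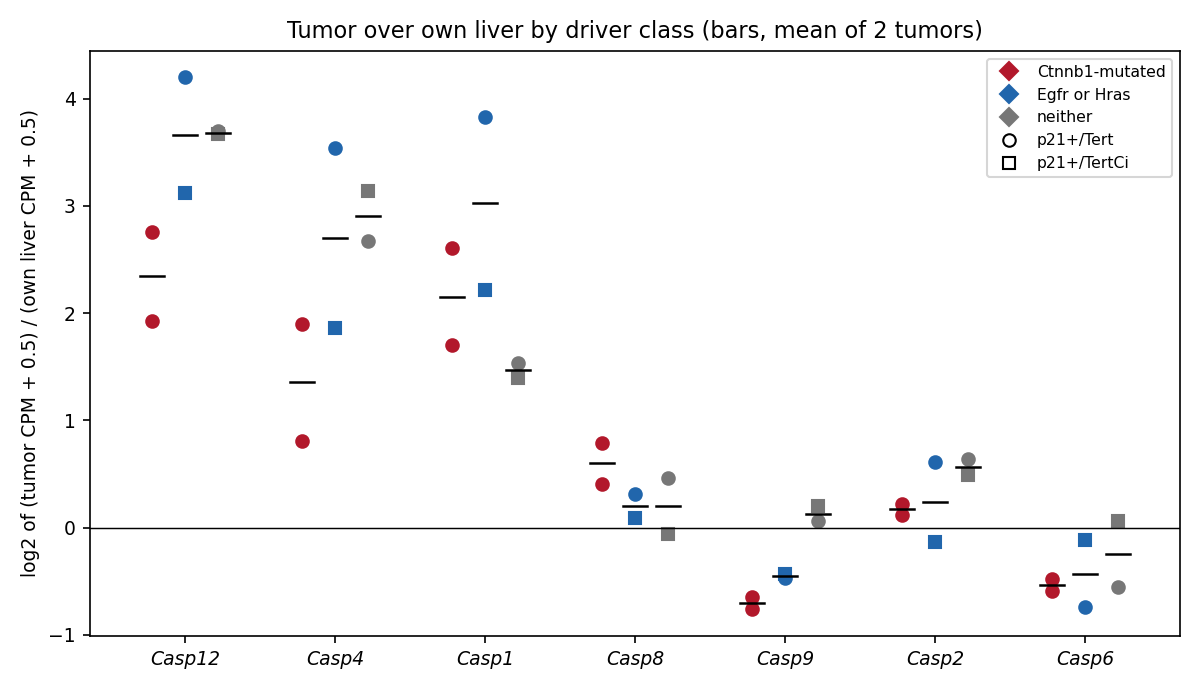
Log2 ratio of tumor to own-liver CPM (0.5 added to both) for 7 caspase genes and 6 mice, by driver class (colors) and genotype (circles p21+/Tert, squares p21+/TertCi), with bars at the mean of the 2 tumors in a class. For Casp12 both Ctnnb1-mutated tumors (1.93 and 2.76) lay below the other 4 (3.12 to 4.20), an order seen in 16.9% of genes.

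Between tumors, none of the 7 caspases tested differed by class or by genotype at an adjusted p of 0.05 (edgeR's quasi-likelihood test over 15182 genes, or DESeq2). In the comparison of Ctnnb1-mutated with the other tumors, 12.7% of genes passed, and no caspase was under an unadjusted p of 0.05. A mouse block compares the classes by their changes from own liver to tumor, not by their tumor levels. On that measure Casp12 (0.0174) and Casp9 (0.0491) were under an unadjusted p of 0.05 by edgeR's test. Casp12 was 21.2 ± 12.6 CPM in the Ctnnb1-mutated tumors (SD, n = 2) and 34.7 ± 7.64 in the others (n = 4), a log2 difference of -0.70 (95% interval -1.78 to 0.38). With the mouse as a block, the log2 changes from own liver differed by -1.40 (-2.47 to -0.33, adjusted p = 0.159). The difference in tumor levels ran from -1.47 without T-HCC663 to -0.19 without T-HCC662. Casp4 had 3.38 and 11.1 CPM in the Ctnnb1-mutated tumors and 11.8 to 19.7 in the others, without overlap. Such a gap was seen in 37.3% of genes in either direction and downward in 19.5%. Its log2 difference was -1.02 (-2.43 to 0.39), or -0.41 without T-HCC662. For Casp1 it was -0.77 (-2.62 to 1.08), for Casp2 -0.30 (-1.0 to 0.40), and for Casp9 -0.11 (-0.60 to 0.39). Casp6 and Casp8 each differed by 0.05, with intervals of -0.54 to 0.65 and -0.45 to 0.55. The intervals of Casp1, Casp4, and Casp12 include differences of more than 1 log2 unit, so similar levels were not shown.

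Casp1 separated the Egfr or Hras tumors (20.8 and 54.1 CPM) from those with neither driver (11.0 and 4.07). The log2 difference was 2.30 (95% interval 0.14 to 4.45), with an unadjusted p of 0.0388 and an adjusted p of 0.527 by edgeR's quasi-likelihood test. With each library left out the difference ran from 1.45 (without TCi-HCC981) to 3.18 (without T-HCA992), and the adjusted p from 0.36 to 0.791. Under the mouse block, the log2 changes from own liver differed by 1.45 (-0.31 to 3.22), with an unadjusted p of 0.093 and an adjusted p of 0.992. By their names both Egfr or Hras tumors were carcinomas and both others adenomas, so driver and histology cannot be told apart here. Casp4 (14.3 and 19.7 against 11.8 and 13.8 CPM) and Casp9 (17.8 and 19.2 against 30.9 and 21.4 CPM) also did not overlap. Gaps of this kind were found in 40.2% of all genes, upward in 19.4% and downward in 20.8%. Their log2 differences were 0.40 (-1.15 to 1.95) and -0.51 (-1.08 to 0.06). Casp12 differed by 0.31 (-0.90 to 1.52). No gene passed this comparison with edgeR, 1412 genes were under an unadjusted p of 0.05, and DESeq2 called 123.

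Genotype was compared among the 4 tumors without Ctnnb1 mutation. Casp6 was 16.4 CPM in T-HCC941 and 14.1 in T-HCA992, against 24.4 in TCi-HCC981 and 24.8 in TCi-HCA984. The p21+/Tert tumors were lower by a log2 difference of -0.70 (95% interval -1.21 to -0.19), with an unadjusted p of 0.0123 and an adjusted p of 0.503 (edgeR's quasi-likelihood test). Under the mouse block, the log2 changes from own liver differed by -0.64 (-1.30 to 0.03), with an unadjusted p of 0.0582 and an adjusted p of 1. Casp8 (31.9 and 32.0 against 42.4 and 42.3 CPM) and Casp12 (31.3 and 28.2 against 45.6 and 33.5 CPM) were also lower in both p21+/Tert tumors, as were 16.5% of genes (34.4% with gaps in either direction). Their log2 differences were -0.41 (-0.92 to 0.09) and -0.42 (-1.63 to 0.80). With the mouse as a block, the changes of these genes from own liver differed by 0.37 and 0.75, with adjusted p of 1. Those values compare changes rather than tumor levels, so their opposite sign is no reversal of the tumor difference. A single gene of 15182 (0.00659%) passed this comparison with edgeR, 1217 were under an unadjusted p of 0.05, and DESeq2 called 161.

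In the non-tumoral livers, Casp8 was 31.4, 19.9, 25.6, and 23.2 CPM in p21+/Tert mice and 39.7 and 44.2 in p21+/TertCi mice. The p21+/Tert livers were lower without overlap, as for 7.03% of genes (8.71% upward, 15.7% in all), by a log2 difference of -0.75 (95% interval -1.18 to -0.32). The unadjusted p was 0.00283 and the adjusted p 0.549 by edgeR's quasi-likelihood test (0.0715 by DESeq2). Casp1 differed by -1.50 (-3.67 to 0.67), Casp4 by -0.92 (-2.32 to 0.47), and Casp12 by -0.51 (-1.62 to 0.60). All 3 changed sign without the liver of TCi-HCC981, to 0.83, 0.53, and 0.17. No gene passed between the livers with edgeR, 1107 were under an unadjusted p of 0.05, and DESeq2 called 99.

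The tumor-liver change itself was set between the genotypes by an interaction term. The difference of log2 changes (p21+/Tert minus p21+/TertCi) was -0.13 for Casp12 (95% interval -1.69 to 1.44), 0.19 for Casp4 (-1.82 to 2.21), and 0.33 for Casp1 (-2.72 to 3.38). It was 0.48 for Casp8 (-0.18 to 1.13) and -0.57 for Casp6 (-1.28 to 0.14). No caspase was under an unadjusted p of 0.05, and no gene passed with edgeR. Under the mouse block Casp6 was at -0.57 (-1.14 to -0.01), with an unadjusted p of 0.0476 and an adjusted p of 0.91. There were 556 genes under an unadjusted p of 0.05, and DESeq2 called 10.

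**Figure D3:**
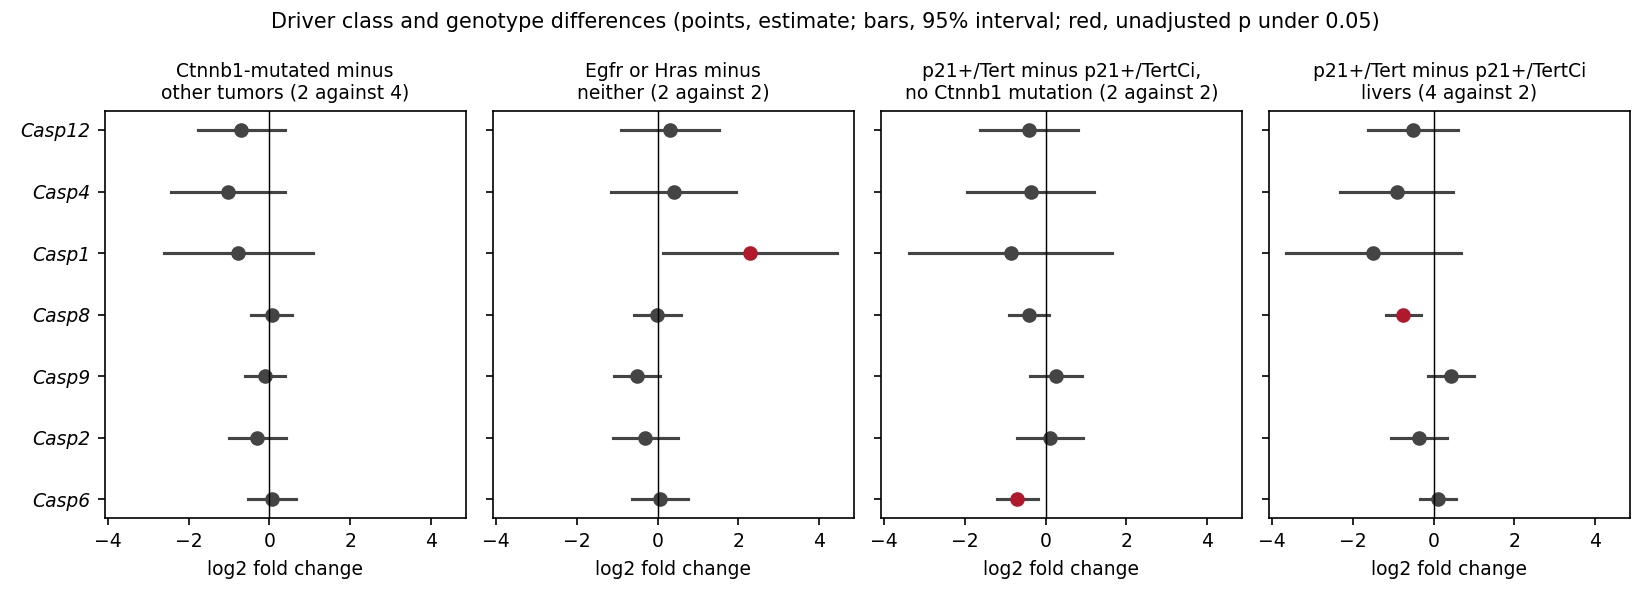
Log2 difference (points) with 95% interval (bars) of 7 caspase genes in 4 comparisons of driver class or genotype, with red points for an unadjusted p under 0.05. The red points are Casp1 by driver (2.30), Casp6 by tumor genotype (-0.70), and Casp8 by liver genotype (-0.75), and the bars of Casp1 are the widest in each panel.

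Bulk tissue was sequenced, so a change in the number of cells of a type and a change in RNA per cell cannot be told apart. The summed CPM of 12 macrophage markers was 193 to 465 in 5 livers and 1908 in the liver of TCi-HCC981, and 211 to 1363 in tumors. The highest tumors were TCi-HCC981 (1363) and T-HCC663 (1045). In each tissue the TCi-HCC981 mouse had the highest macrophage sum and also the highest Casp1, Casp4, and Casp12. The tumor mean was higher than the liver mean for 6 of the 12 markers, and none passed the test. Under a mouse block 4 of the 12 passed, as Cd68 rose and Timd4, Marco, and Cd163 fell. The share of all genes under that block is not given here to set beside this count. Clec4f, Timd4, Marco, and Cd163, among the markers of resident macrophages, were each higher in the tumor in 1 of 6 mice. Vsig4 and Cd5l of the same list had small log2 fold changes (-0.03 and -0.19) that did not pass. TCi-HCA984 combined the lowest macrophage sum of the tumors (211) with the lowest Casp1 (4.07 CPM) and the second highest Casp12 (33.5 CPM).

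**Figure D4:**
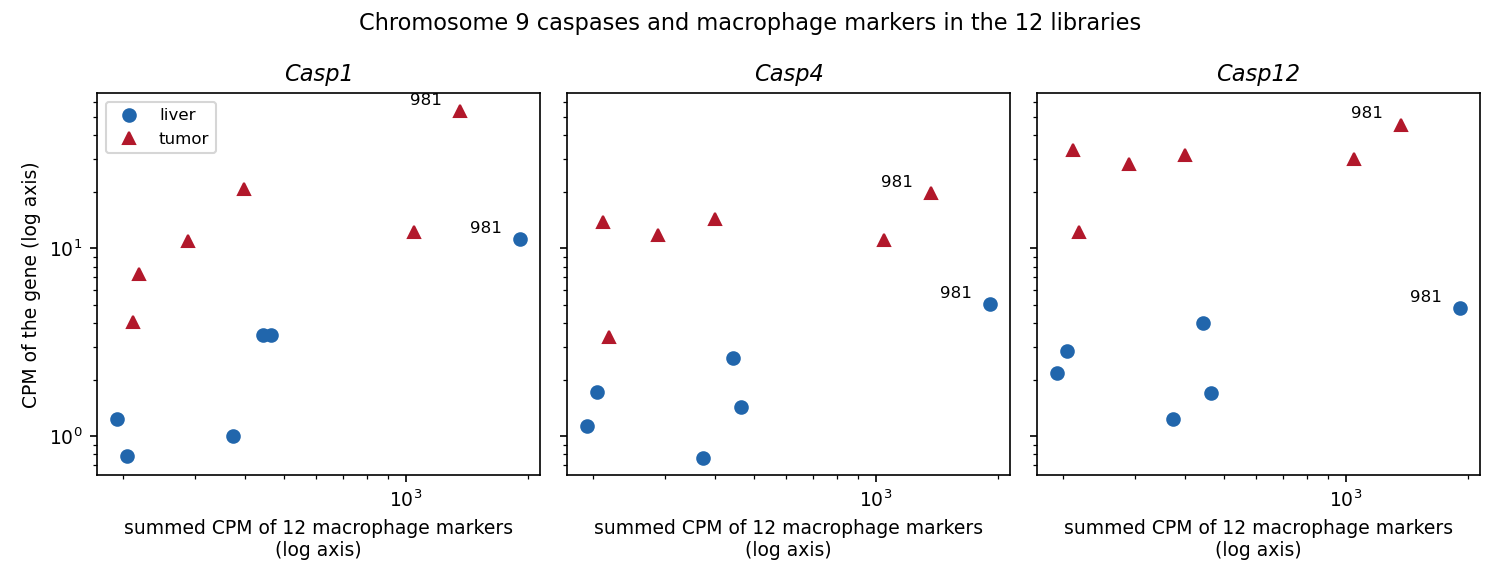
CPM of Casp1, Casp4, and Casp12 (log axes) against the summed CPM of 12 macrophage markers in 6 livers (circles) and 6 tumors (triangles), with the TCi-HCC981 mouse marked. Casp12 ran from 1.23 to 4.81 CPM in livers at marker sums of 193 to 1908 and from 12.2 to 45.6 CPM in tumors at sums of 211 to 1363.

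Other marker lists were read in the same way. The endothelial sum was 54.3 to 166 CPM in livers and 58.3 to 265 in tumors, and 2 of 7 markers passed. Pecam1 (log2 fold change 1.59, adjusted p = 0.0179) and Emcn (2.52, adjusted p = 0.0023) rose in 6 of 6 mice. The sinusoidal markers Clec4g (-0.98, adjusted p = 0.317), Stab2 (-0.22, adjusted p = 0.711), and Lyve1 (1.43, adjusted p = 0.277) did not pass edgeR's test and did not share a direction. Dendritic cell markers summed to 5.53 to 37.9 CPM in livers and 12.8 to 53.1 in tumors, with the TCi-HCC981 mouse highest in both. Bile duct markers summed to 50.7 to 136 CPM in livers and 17.6 to 1081 in tumors, highest in T-HCA992, and the tumor mean was higher for 3 of 6. Of these 6, Cldn7 alone passed (3.91, adjusted p = 0.0407, or 0.137 with the mouse as a block), while Krt7 (-1.07), Krt19 (-0.75), and Epcam (-0.60) had negative log2 fold changes that did not pass. T cell markers summed to 1.57 to 15.9 and 2.87 to 35.3 CPM, B cell markers to 0.786 to 41.8 and 1.49 to 17.8, and neutrophil markers to 6.27 to 32.1 and 4.54 to 27.2. Stellate and fibroblast markers summed to 58.7 to 249 and 28.7 to 302 CPM, with a higher tumor mean for 4 of 8. None of the 8 passed, and with the mouse as a block Col1a1 and Col1a2 rose, while Dcn (-0.86), Des (-0.66), Lrat (-0.88), and Reln (-0.04) had negative log2 fold changes. The dendritic cell marker Itgax, 1 of 6, also rose under the block. The 8 hepatocyte markers were all detected, with sums of 33470 to 57360 CPM in livers and 18800 to 100500 in tumors, and 1 of them, Tat, fell. No marker outside the keratinocyte list was at 0 in every library. The part of these cells in the caspase levels was not tested.

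The partners and substrates of the caspases were then tested between tumors and livers, where 6.77% of all genes were higher and 3.91% lower in tumors. These shares belong to the fit without a mouse term. No share of all genes under the mouse block is given here, so the block counts below have no background beside them. The median log2 fold change of all genes was 0.01. Upstream of the inflammatory caspases, 1 of 16 inflammasome genes tested rose and none fell. Naip2, a sensor of a bacterial secretion system protein, went from 5.80 ± 2.44 to 26.3 ± 22 CPM (SD, n = 6; log2 fold change 2.17 ± 0.54, edgeR's adjusted p = 0.0236). It was 4.90 CPM in T-HCC662 and 7.28 in T-HCC663, below each other tumor. The log2 difference of Ctnnb1-mutated from other tumors was -2.52 (edgeR's adjusted p = 0.0123), in a comparison that 12.7% of all genes passed. With the mouse as a block 3 of the 16 rose, the others being the guanylate-binding proteins Gbp3 and Gbp7. The adaptor Pycard was 2.73 ± 1.86 CPM in livers and 3.41 ± 2.11 in tumors (adjusted p = 0.751).

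Of 8 genes for pore formers and for cytokines that these proteases process, 1 rose. Il1rn, which encodes the interleukin-1 receptor antagonist and is no caspase substrate, had 1.38 to 14.4 CPM in livers and 88.7 CPM (TCi-HCA984), 19.8 (T-HCA992), 177 (TCi-HCC981), 73.2 (T-HCC941), 9.02 (T-HCC663), and 13.0 (T-HCC662) in tumors. Its log2 fold change was 3.58 ± 0.83 (adjusted p = 0.0162). Both Ctnnb1-mutated tumors were the lowest, an order seen in 19.5% of genes (37.3% without overlap in either direction). The substrates did not pass between tumors and livers. Il1b had 1.13 to 10.8 CPM in livers and 0.757 to 17.4 in tumors, with the TCi-HCC981 mouse highest in both. Il18 was 12.2 ± 4.33 and 11.8 ± 9.34 CPM, and Gsdmd 74.8 ± 24.1 and 69.1 ± 17.7 CPM (adjusted p = 0.655, 0.971, and 0.812 for Il1b, Il18, and Gsdmd). The Il18 means join opposite changes, since it was above the own liver in both Ctnnb1-mutated tumors and below it in each other tumor. Between these classes its log2 difference was 1.91 (edgeR's adjusted p = 0.032), in a comparison that 12.7% of all genes passed.

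On the mitochondrial side, Apaf1, the scaffold on which Casp9 is activated, rose from 4.33 ± 2.21 to 10.9 ± 3.88 CPM (log2 fold change 1.33 ± 0.34, adjusted p = 0.0269), against a log2 fold change of -0.35 for Casp9 itself. Apaf1 was the only gene of 6 in its list to pass. In the Bcl2 family 3 of 17 genes rose and none fell, and 6 of 17 rose with the mouse as a block. Bok rose by 1.83 ± 0.36 (adjusted p = 0.00693), the survival gene Bcl2l1 by 0.82 ± 0.19 (adjusted p = 0.0153), and the pore former Bax by 0.74 ± 0.19 (adjusted p = 0.0289), each in 6 of 6 mice. The additional genes under the block were Bcl2l11, Bcl2a1b, and Bcl2a1d. Bcl2a1b and Bcl2a1d are near-identical copies, so their reads may have been split or lost in counting. Of 5 genes of the inhibitor of apoptosis family, Birc5, a mitotic protein known as survivin, rose (1.96 ± 0.54, adjusted p = 0.0355). Xiap, the direct inhibitor of Casp9, was 130 ± 31.5 and 119 ± 38.3 CPM (adjusted p = 0.778).

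The death receptor Tnfrsf10b, which engages Casp8 through Fadd, had 0.382 to 1.05 CPM in livers. It had 10.8 CPM in TCi-HCA984, 17.4 in T-HCA992, 11.6 in TCi-HCC981, 13.2 in T-HCC941, 5.38 in T-HCC663, and 6.59 in T-HCC662. Its log2 fold change of 3.82 ± 0.36 (adjusted p = 0.00019) exceeded that fitted for Casp12, and every tumor lay above every liver. It was 1 of 11 tested genes of the death receptor pathway that rose, and Mlkl, the effector of necroptosis, was added with the mouse as a block. Fadd (adjusted p = 0.697) and Cflar, the inhibitor of Casp8 activation (adjusted p = 0.845), did not pass. None of the 3 PIDDosome genes around Casp2 passed, with Pidd1 at 5.28 ± 1.41 and 6.14 ± 1.70 CPM and Cradd at 20.8 ± 2.46 and 17.4 ± 6.68. Cradd was higher in Ctnnb1-mutated than in other tumors (log2 difference 0.97, edgeR's adjusted p = 0.0148), in a comparison that 12.7% of all genes passed.

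In the unfolded protein response, the setting in which Casp12 has been studied, 1 of 18 genes rose. That gene was Trib3, a target of the stress factors Atf4 and Ddit3, with a log2 fold change of 1.78 ± 0.36 (adjusted p = 0.0083) and 5 of 6 mice higher. It is named because it was the only call of the list, outside the rule for naming genes. The chaperone Hspa5, a main readout of endoplasmic reticulum stress, was 475 to 2059 CPM in livers and 339 to 1605 in tumors (log2 fold change -0.03 ± 0.44, adjusted p = 0.977). Ddit3 was higher in 5 of 6 mice at 0.91 ± 0.29 (adjusted p = 0.0604). Creb3l3, a hepatocyte factor of this response, fell under the mouse block. Among 7 caspase substrates and DNA fragmentation genes 1 fell, namely Gas2, from 43.0 ± 17.9 to 17.3 ± 8.95 CPM in 6 of 6 mice (log2 fold change -1.31 ± 0.36, adjusted p = 0.0349), and Dffa also fell with the mouse as a block.

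The altered genes were also read, although they cannot check the labels, since every mouse carried a knock-in and no wild-type liver was analysed. Tert was 10.7 to 17.5 CPM in livers and 4.64 to 26.2 in tumors (adjusted p = 0.933), and the counts do not separate the knock-in from the endogenous gene. Cdkn1a was 1.64 to 51.8 CPM in livers and 32.6 to 80.4 in tumors, higher in 6 of 6 mice (log2 fold change 1.85 ± 0.70, adjusted p = 0.111, or 0.0239 with the mouse as a block). Between 14571716 and 26170661 reads were counted on genes per library.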

How the data were processed

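Poly(A) RNA of 6 tumors and 6 non-tumoral livers was sequenced as paired ends. Subread alignment by the authors used mm10 with an added mCherry sequence, and they deposited raw read counts per gene symbol made with featureCounts 1.6.4. No normalization was applied. Strand setting and annotation release are not given in the sources used here. The authors corrected their own tests for sequencing run, which could not be examined because no run is named in the labels.

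Groups came from the labels and driver classes from the study's exome sequencing. The caspases, lists, and tests were chosen with earlier results of these data known, and the promoter motifs after the promoters had been read. Counts were scaled by TMM, filtered with filterByExpr, and tested with edgeR 4.0.16 (quasi-likelihood F test, R 4.3.3) with Benjamini-Hochberg adjustment at 0.05. Tumors against livers used 13822 genes, and the other comparisons used 15182 genes and models of all 12 libraries. None of these models held a mouse term, so the tests used the pairing of tumor and liver only where a mouse block is named. The driver class comparisons shared a model, the tumor and liver genotype comparisons shared another, and the interaction had its own. Intervals are 95% intervals from the same fit, and SE is the log2 fold change over the square root of F. The tests were tried on simulated counts first. Differences between samples of a group measure the spread between mice.

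The genes named were the 8 caspases, at most 4 genes per list with the smallest p among those that passed and moved the same way in 6 mice, their direct partners, genes within 500 kb of the Casp1 cluster, the 5 genes most like Casp12, Tert, and Cdkn1a. Of the listed genes, Flg, Gsdme, Loricrin, Ly6g, and Trac were not among the symbols. Exon lengths and positions came from GENCODE on GRCm38 and promoters from RefSeq, where all 8 caspases had an entry and Casp4 had 2, of which the first was printed.

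Same-numbered tumors and livers come from 1 animal, which pairs them. Over 13822 genes the deviations of tumor and own liver from their group means correlated with r = 0.548 (TCi-HCA984), 0.443 (T-HCA992), 0.548 (TCi-HCC981), 0.04 (T-HCC941), 0.045 (T-HCC663), and 0.191 (T-HCC662), against a median of -0.065 for other mice. The p21+/TertCi groups held 2 libraries each, so their deviations mirror each other and 0.548 is the same measurement for both mice. The correlation between these mice is its negative by construction and is part of that median. The alternatives were DESeq2 1.42.0, RLE factors, no filter, the mouse as a block, only the libraries compared, each library left out, and 3 other settings of the own-liver ratio.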

Additional observations from a re-analysis of the deposited data

Results flagged for a closer look

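Within 29 groups of libraries (6 livers, 6 tumors, or the 4 of the p21+/Tert genotype), 5 had a library far from the others by Dixon's criterion, and chance marks about 1 in 20. Casp1 was highest in the liver of TCi-HCC981 (11.2 CPM) and in TCi-HCC981 (54.1 CPM), and the macrophage marker sum was also highest in these libraries of each tissue. Whether the marker sum bears on Casp1 was not tested. Casp12 was lowest in T-HCC662 (12.2 CPM) among the 4 p21+/Tert tumors. Casp9 was highest in T-HCA992 (30.9 CPM) among the 6 tumors, where the overlapping Cela2a had 3.56 CPM. Casp14 was above 0 in TCi-HCA984 alone (0.0573 CPM, 1 read), which lies under the floor of 3 reads.

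Casp9 was above the own liver in both tumors with neither driver and below it in the other 4. The mean log2 ratios differed by 0.71, and this difference was not tested. The same split of signs was seen in 1.21% of genes.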

How the results depend on the processing

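Caspase CPM exceeded that of the own liver in 31 of 42 pairs of gene and mouse (Casp14 left out). The count was 30 or 31 under a pseudocount of 2 CPM, DESeq2 size factors, or the mean of the livers as reference. It joined Casp1, Casp4, and Casp12 (6 of 6 mice each), Casp2 and Casp8 (5 of 6), Casp9 (2 of 6), and Casp6 (1 of 6). The count therefore describes no shared rise of these genes. The tumor-liver log2 fold changes of all 7 kept their sign in every setting, from 3.27 to 3.65 for Casp12, 2.34 to 3.01 for Casp4, and 1.64 to 3.19 for Casp1 with a library left out. No caspase passed in a comparison of class or genotype under any alternative. Levels as low as 10 reads (Casp4 in the liver of T-HCC941) and groups of 2 limit what these comparisons can show. By driver class and tumor genotype, the mouse block compares changes from own liver in place of tumor levels. The cause of the other shifts below was not tested.

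DESeq2 called 2407 genes between tumors and livers, 3266 between Ctnnb1-mutated and other tumors, 123 by Egfr or Hras, 161 by tumor genotype, 99 by liver genotype, and 10 for the interaction (1477, 1924, 0, 1, 0, and 0 with edgeR). With the mouse as a block 441 genes passed by Ctnnb1 and 0 by tumor genotype, and with only the libraries compared 834 and 0. Without the filter 5 passed by liver genotype. Leaving out 1 library gave 830 to 1973 genes between tumors and livers (830 without the liver of T-HCC662, 953 without that of T-HCC663 or of T-HCC941, 936 without T-HCC941) and 458 to 2101 by Ctnnb1 (458 without T-HCC662, 987 without T-HCC663, 1129 without T-HCA992, 1107 without TCi-HCC981). It gave 0 to 2 by Egfr or Hras, 0 to 1 by tumor genotype, and 0 to 7 by liver genotype (7 without the liver of TCi-HCC981).

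Signs differed in these cases, all among differences that did not pass. By class and tumor genotype, the block compares changes from own liver, so another sign there is no reversal of the tumor difference. Such signs were found for Casp1 (0.00) and Casp6 (-0.20) by Ctnnb1 and for Casp4 (-0.40) and Casp12 (-0.16) by Egfr or Hras. They were also found for Casp8 (0.37) and Casp12 (0.75) by tumor genotype. In the interaction, which compares changes in both fits, Casp4 turned to -0.20 under the block. With a library left out, the Ctnnb1 difference ran from -0.13 to 0.29 for Casp6, -0.09 to 0.19 for Casp8, and -0.23 to 0.03 for Casp9. The liver genotype difference ran from -2.34 to 0.83 for Casp1, -1.62 to 0.53 for Casp4, and -0.97 to 0.17 for Casp12, each upper end without the liver of TCi-HCC981. The interaction ran from -0.81 to 0.33 for Casp12, -1.25 to 0.89 for Casp4, and -2.0 to 3.15 for Casp1. Among differences shown only in the plot of intervals, the block also gave another sign, for changes from own liver. These were Casp6 (-0.20) by Egfr or Hras and Casp1 (0.83), Casp4 (0.83), and Casp9 (-0.08) by tumor genotype. The block changed no call of a caspase by class or genotype.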
